A study of Mus musculus with 12 samples.

Results

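The genes described here encode the subunits of voltage-gated and related potassium, sodium and calcium channels, in N2A cells. They were chosen by symbol alone: every probe set with a single gene symbol that starts with Kcn, Cacna, Cacnb or Cacng, or with Scn followed by a number and a or b. Antisense and overlapping transcripts named after a channel and the regulator Kcnrg were left out. This gave 142 probe sets of 123 genes, out of 21789 probe sets and 19938 genes with a single symbol. Most genes had 1 probe set, but Scn2a had 14, and Scn9a, Kcna2, Kcnma1, Cacna2d1, Cacng2 and Kcnh8 had 2 each.

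N2A (Neuro-2a) is a mouse neuroblastoma line that puts out neurites when retinoic acid (RA) is given. RNA was measured on 12 Affymetrix Mouse Gene 1.0 ST arrays in 4 groups of 3. Control cells carried a non-targeting (scrambled) short hairpin RNA, and knockdown (KD) cells a hairpin against Dali, a long non-coding RNA transcribed near the POU-domain transcription factor gene Pou3f3. Both hairpins were driven by the U6 promoter and co-transfected with a hygromycin resistance plasmid, and drug-resistant clones were isolated, so that all 4 groups share selection in hygromycin. Each kind of cell was profiled while proliferating in medium with 10% serum and after 72 h in medium with 20 uM all-trans RA and 2% serum, so that the effects of RA and of less serum cannot be told apart. The series calls the arrays of a group biological replicates but does not say whether they are separate clones or cultures, and the p-values then cover no more than the spread among these arrays. The study describes clonal knockdown lines compared with a control line. Effects of the knockdown and differences between clones therefore cannot be told apart, also where a change is described below as with the knockdown. No probe set carried the symbol Dali, so the knockdown was not checked on the arrays. Arrays of the same group correlated at 0.9924 or more and arrays of different groups at 0.9926 or less. In bulk RNA, fewer cells with a transcript and less of it per cell cannot be told apart.

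Potassium channels bring the membrane back towards rest and limit firing. Voltage-gated sodium channels carry the upstroke of the action potential, and voltage-gated calcium channels couple depolarisation to transmitter release and signalling. Most channels join a pore-forming subunit, which carries the ions, to auxiliary subunits that set its gating and its place in the membrane. Neuroblasts change the set of channels they express as they mature, and ion channels are among the genes studied in N2A cells as signs of neuronal differentiation.

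The sequence upstream of the start of the 3 genes called lower with the knockdown in both states is shown first, since the study concerned transcription factor binding and CpG methylation at promoters. The letters are those of RefSeq on the build GRCm38.p6, 250 bases ending at the base before the annotated start and written in the direction of the gene, with CG dinucleotides in capitals. Kcna4, a rapidly inactivating Kv1 channel, has its stretch at chr2:107290339-107290588 on the plus strand. Kcnh7, a channel of the ERG family, has its stretch at chr2:63184288-63184537 on the minus strand. Scn1a, a sodium channel alpha subunit, has its stretch at chr2:66440838-66441087 on the minus strand.
Kcna4: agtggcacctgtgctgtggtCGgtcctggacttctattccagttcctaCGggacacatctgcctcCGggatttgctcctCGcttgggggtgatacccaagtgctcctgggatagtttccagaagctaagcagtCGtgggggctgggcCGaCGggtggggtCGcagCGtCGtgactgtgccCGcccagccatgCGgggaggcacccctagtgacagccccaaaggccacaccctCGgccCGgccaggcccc
Kcnh7: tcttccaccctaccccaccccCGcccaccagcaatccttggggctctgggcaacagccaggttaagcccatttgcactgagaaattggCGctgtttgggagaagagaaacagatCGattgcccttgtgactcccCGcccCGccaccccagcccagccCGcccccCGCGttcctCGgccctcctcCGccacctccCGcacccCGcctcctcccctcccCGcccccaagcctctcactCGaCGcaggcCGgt
Scn1a: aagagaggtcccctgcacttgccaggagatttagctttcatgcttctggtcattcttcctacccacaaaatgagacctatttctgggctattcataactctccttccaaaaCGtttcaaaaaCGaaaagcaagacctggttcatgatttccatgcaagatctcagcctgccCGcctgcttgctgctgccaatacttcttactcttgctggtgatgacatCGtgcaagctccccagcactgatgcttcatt

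In the 300-base window of the table, which runs 50 bases past the start, Kcna4 held 20 CG dinucleotides and Kcnh7 held 21, more than 73.5% and 75.2% of the 32851 mouse promoters in the table. Scn1a held 5, more than 38% of them. The median was 7 over all promoters and 9 over the 129 promoters of channel genes. The octamer bound by POU factors, ATGCAAAT, was searched in the window on both strands and was in none of the 11 promoters of called genes that the table holds, against 1.74% of all promoters. The core motif of retinoid receptors, AGGTCA, was in 1 of these 11, that of Scn1a, against 16.3% of all promoters. The motifs share no run of letters that would count a site under both. The called genes Cacna1g, Kcnn2 and Scn3a have no entry.

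As a measure of faint signal, the 95th percentile of 1210 probe sets for olfactory and vomeronasal receptors was taken, which are silent in most cells. It lay at 6.54 on the log2 scale and is called the dim level below. Of the channel probe sets, 84 had a mean above it over the 12 arrays (59.2%), against 66% of all probe sets with 1 symbol, and 69 of the 123 genes had such a probe set. The median level was 6.79 for channel probe sets and 7.44 for all. In 56 probe sets no group mean passed the dim level. A level is the signal of a probe set and depends on its probes, so that levels of different genes are not read as amounts of RNA.

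**Figure D1:**
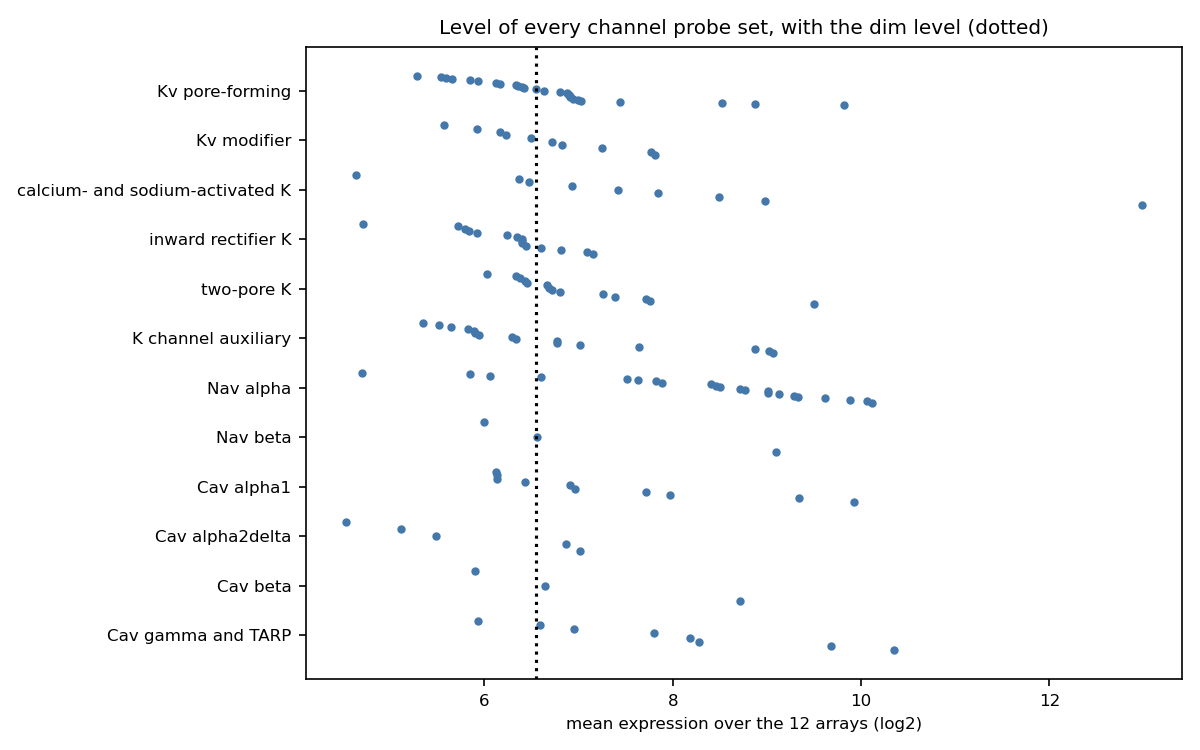
Mean log2 expression over the 12 arrays (x axis) of each of the 142 channel probe sets (points), by class (y axis), with the dim level of 6.54 as a dotted line. Of the 15 inward rectifier genes 4 lie above the line, whereas each of the 7 genes of the Cav gamma and TARP class has a point above it.

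The classes differed in how many members were above the dim level. Of the 25 genes for pore-forming Kv channels 15 were, and the highest signal came from Kcnh2 (9.82), the ERG channel that repolarises the heart, and Kcnq5 (8.88), a channel of the M current. Among the 10 silent modifier subunits of Kv channels 5 were, and Kcng2 (7.81) and Kcng1 (7.77) were highest. Inward rectifiers, which hold the resting potential, were above it in 4 of 15 genes, and the highest, Kcnj11, the pore of the ATP-sensitive channel, was at 7.15, followed by Kcnj9 at 7.09. Of the 14 genes for tandem-pore leak channels 9 passed, led by Kcnk3 (9.50), an acid-sensitive channel, and Kcnk12 (7.76). Of the 16 auxiliary potassium channel subunits 7 passed, led by the beta subunits Kcnab1 (9.06) and Kcnab2 (9.02).

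Sodium and calcium channels had a similar mix. Of 8 sodium channel alpha subunit genes, Scn2a, Scn9a, Scn8a, Scn3a and Scn1a were above the dim level. The muscle and heart forms were not analysed here, and Scn7a, Scn10a and Scn11a were under the dim level in all 4 groups. Among beta subunits Scn3b was highest (9.10), followed by Scn2b (6.56). The calcium channel pores Cacna1b (9.93), the N-type channel of nerve endings, and Cacna1c (9.34), an L-type channel, led 6 of 10 genes above the dim level. Cacnb1 (8.71) was the highest beta subunit and Cacnb2 (6.64) came next. Of 4 alpha2delta genes, which aid the transport of the pore, Cacna2d4 (7.02) and Cacna2d2 (6.87) passed. The gamma family holds the TARPs, which also carry AMPA receptors to the synapse, and Cacng3 (10.35) and Cacng7 (9.68) were its highest members.

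A gene was called when a probe set passed a Benjamini-Hochberg adjusted p of 0.05 over all 21789 probe sets with limma and changed at least 1.3-fold, which is 0.38 on the log2 scale. Changes below are on the log2 scale with the standard error (SE) of the fit and n = 3 arrays a group. Of the 123 channel genes 12 were called in at least 1 comparison (9.76%) and 111 in none, where 10.5% of all genes were called in at least 1.

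**Figure D2:**
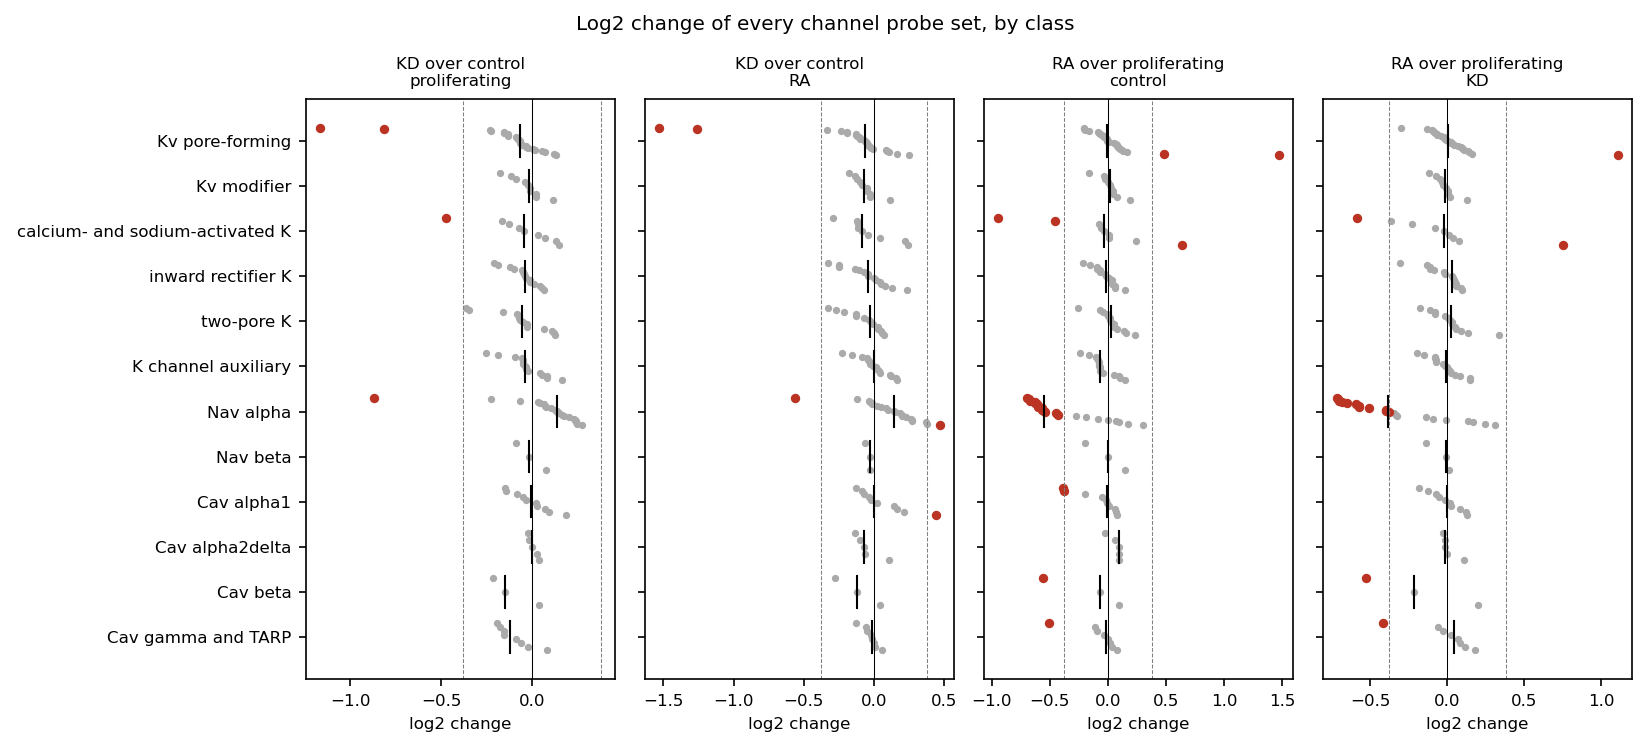
Log2 change (x axis) of each of the 142 channel probe sets (points) by class (y axis), for KD over control and for RA over proliferating cells, with called probe sets in red, others in grey, the class median as a black bar and the 1.3-fold limits as dashed lines. Most points lie within the dashed lines, and the red points of the Nav alpha class in the RA panels are mostly probe sets of the single gene Scn2a.

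In proliferating cells, 4 channel genes fell with the knockdown and 0 rose. They were 3.25% of the channel genes, where 1.5% of all genes were called lower and 2.01% higher. They were the potassium channels Kcna4, Kcnh7 and Kcnn3 and the sodium channel Scn1a. For Kcna4 the control arrays read 6.61, 6.51 and 6.58 and the KD arrays 5.44, 5.23 and 5.54. No KD array reached the lowest control array, and the log2 change was -1.17 (SE 0.08, adjusted p = 3.49e-06). For Scn1a the control arrays all read 6.96 and the KD arrays 6.02, 6.17 and 6.09. The groups were apart here too, with a log2 change of -0.87 (SE 0.09, adjusted p = 4.06e-05). The Kcnh7 controls read 6.61, 6.74 and 6.75, and the KD arrays 5.84, 5.91 and 5.91, a log2 change of -0.82 (SE 0.06, adjusted p = 5.51e-06). For these 3 genes every proliferating KD array lay under the dim level. Kcnn3, a small-conductance calcium-activated channel (SK3), was well above it, at 9.72, 9.54 and 9.55 in control and 9.14, 9.17 and 9.08 in KD cells, without overlap. Its log2 change was -0.48 (SE 0.07, adjusted p = 0.000355). KD and control arrays did not overlap in 50 of the 142 channel probe sets (35.2%) in proliferating cells. The same share over all probe sets was not computed, so that this count is not read as a trait of channel genes.

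Other members stayed inside the 1.3-fold limit. The leak channels Kcnk1 and Kcnk3 had log2 changes of -0.36 and -0.35, the BK channel beta subunit Kcnmb3 -0.25, and Kcnh2 -0.23. On the other side stood Cacna1g, a T-type calcium channel pore, with 0.19 and Scn3a with 0.17. By adjusted p alone 23 of the 142 probe sets passed, 10 higher and 13 lower, against 18.4% of all probe sets. Of the 10 higher, 7 were probe sets of Scn2a. The median change of the channel probe sets was -0.034, and -0.011 for all probe sets.

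After RA, 3 channel genes were lower in KD than in control cells and 2 were higher, which is 4.07% of the channel genes, where 2.03% of all genes were called lower and 1.87% higher. The lower ones were Kcna4, Kcnh7 and Scn1a again, each also called in proliferating cells. Kcna4 read 8.02, 8.14 and 7.97 in control and 6.63, 6.55 and 6.35 in KD cells after RA. The log2 change was -1.53 (SE 0.08, adjusted p = 4.53e-07), the largest of any channel gene in either KD comparison. Kcnh7 read 7.07, 7.24 and 7.24 in control and 5.83, 5.92 and 6.02 in KD cells, a log2 change of -1.26 (SE 0.06, adjusted p = 2.4e-07). Scn1a read 7.03, 7.13 and 6.73 in control and 6.35, 6.52 and 6.34 in KD cells, a log2 change of -0.56 (SE 0.09, adjusted p = 0.000704). All 3 genes had arrays that did not overlap between KD and control. So had 39 of the 142 channel probe sets after RA (27.5%), and here too the share over all probe sets was not computed. Kcnh7 and Scn1a remained under the dim level in all KD arrays.

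The 2 genes that were higher were Scn3a, a sodium channel alpha subunit typical of the embryonic brain, and Cacna1g. Scn3a read 7.14, 7.11 and 7.16 in control and 7.67, 7.50 and 7.65 in KD cells, a log2 change of 0.47 (SE 0.05, adjusted p = 4.89e-05). Cacna1g read 7.45, 7.35 and 7.29 in control and 7.75, 7.76 and 7.92 in KD cells, a log2 change of 0.44 (SE 0.06, adjusted p = 0.000173). In both, each KD array was above each control array. Uncalled members had log2 changes of -0.34 (Kcnh2), -0.33 (Kcnk1), -0.33 (the inward rectifier Kcnj16), -0.29 (the sodium-activated Kcnt2) and -0.28 (the calcium channel beta subunit Cacnb4), and of 0.25 for Kcnc1, a fast-firing Kv3 channel. Of these, Kcnj16, Kcnt2 and Cacnb4 had means under the dim level in every group. By adjusted p alone, 32 probe sets passed, 19 higher and 13 lower, against 21.6% of all probe sets.

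**Figure D3:**
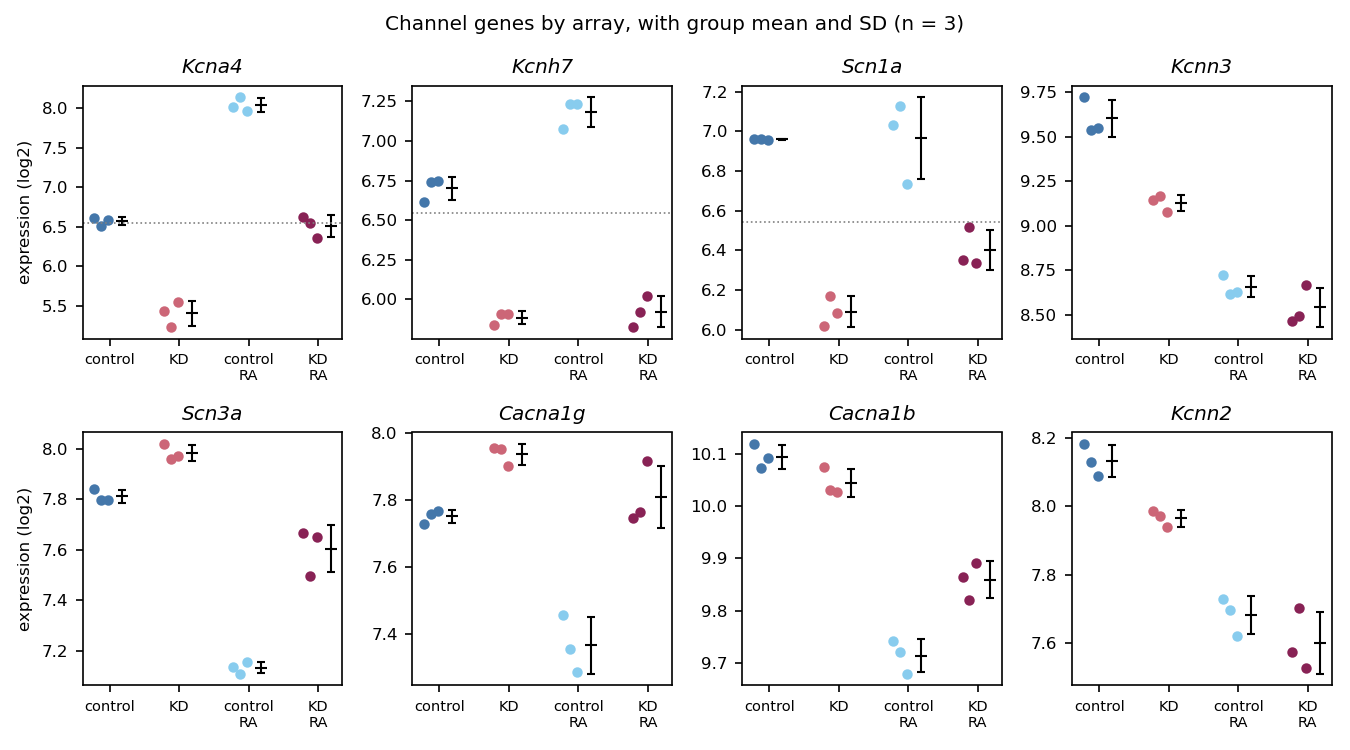
Log2 expression on each array (points, y axis; the axis range differs between panels) of 8 called channel genes in proliferating control, proliferating KD, RA-treated control and RA-treated KD cells, with the group mean and SD (n = 3) as bars and the dim level as a dotted line in the first 3 panels. For Kcna4, Kcnh7 and Scn1a the KD arrays lie under the control arrays in both states.

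RA in control cells raised 3 channel genes and lowered 8, together 8.94% of the channel genes, where 2.79% of all genes were called higher and 1.89% lower. Among potassium channels, Kcna4 was higher by 1.47 (SE 0.08, adjusted p = 1.83e-07) and Kcnh7 by 0.48 (SE 0.06, adjusted p = 0.000159), with the RA arrays given above all higher than the proliferating ones. Kcnn3 was at 8.73, 8.62 and 8.63 after RA and fell by 0.95 (SE 0.07, adjusted p = 8.32e-07), without overlap. Kcnn2, the SK2 channel of the same family, was at 8.18, 8.13 and 8.09 before and 7.73, 7.70 and 7.62 after RA, a log2 change of -0.45 (SE 0.05, adjusted p = 5.63e-05), with every RA array lower.

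The remaining called rise, of the BK channel gene Kcnma1, is uncertain. A probe set assigned to it, at a mean level of 12.99, had a log2 change of 0.64 in control and 0.75 in KD cells. The other Kcnma1 probe set, at 8.49, had changes of -0.061 and 0.037. The numbers next to the first one belong to probe sets of genes on chromosome 8, while RefSeq has Kcnma1 on chromosome 14, and its accessions hold no RefSeq transcript of Kcnma1. Without it, an alternative added after the data were seen, the genes called higher number 2 in control cells and 1 in KD cells.

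Among sodium channels, Scn2a and Scn3a fell. Scn2a, a main sodium channel of immature axons, was called lower in 13 of its 14 probe sets in control cells, where 1.83% of all probe sets were called lower. The changes ran from -0.28 to -0.70 on the log2 scale, with a median of -0.58. In all 14 the RA arrays lay below the proliferating arrays, as 17% of all probe sets did. These are probe sets of the same gene, so that they are not 14 separate results. The probe set with the highest level read 10.39, 10.31 and 10.27 in proliferating control cells and 9.74, 9.76 and 9.68 after RA. Scn3a read 7.84, 7.80 and 7.80 before RA and had a log2 change of -0.68 (SE 0.05, adjusted p = 1.15e-06), without overlap. Scn9a, the peripheral sodium channel next to Scn1a, was not called, with changes of 0.30 and 0.17 in its 2 probe sets. Scn1a changed by 0.0050 (95% confidence interval -0.18 to 0.19) and Scn8a by -0.19. Among potassium channels that were not called, Kcnt2, with means under the dim level in every group, had a change of 0.24, Kcnk5 of 0.23 and the modifier Kcng4 of 0.19.

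Among calcium channels, 4 genes fell with RA in control cells. The N-type pore Cacna1b read 10.12, 10.07 and 10.09 before and 9.74, 9.72 and 9.68 after RA, a log2 change of -0.38 (SE 0.04, adjusted p = 2.45e-05). The T-type pore Cacna1g had a log2 change of -0.39 (SE 0.06, adjusted p = 0.000337) from proliferating values of 7.73, 7.76 and 7.77. Both lay close to the 1.3-fold limit, and without the RA-treated control replicate 3 neither was called (-0.36 for Cacna1b and -0.35 for Cacna1g). Cacnb1 read 9.11, 9.08 and 8.99 before and 8.50, 8.58 and 8.42 after RA, a log2 change of -0.56 (SE 0.06, adjusted p = 1.86e-05). Cacng3 read 10.72, 10.58 and 10.57 before and 10.14, 10.21 and 10.01 after RA, a log2 change of -0.50 (SE 0.06, adjusted p = 0.000104). No RA array of these genes reached the lowest proliferating array. The other calcium channel genes, 8 of 10 pores, 2 of 3 beta subunits, 6 of 7 gamma genes and all 4 alpha2delta genes, were not called. By adjusted p alone 34 channel probe sets passed, 6 higher and 28 lower, against 17.5% of all probe sets.

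In KD cells RA raised 2 channel genes and lowered 5, or 5.69% of the channel genes, where 2.68% of all genes were called higher and 2.33% lower. All 7 were also called, in the same direction, in control cells. Kcna4 rose by 1.11 (SE 0.08, adjusted p = 1.77e-06), from the values below the dim level to values that overlapped those of untreated control cells. Kcnn3 fell to 8.46, 8.49 and 8.67, a log2 change of -0.59 (SE 0.07, adjusted p = 4.11e-05). Scn3a, from 8.02, 7.96 and 7.97, changed by -0.38 (SE 0.05, adjusted p = 0.000135), just past the limit, and was at -0.33 and not called without the RA-treated KD replicate 2 and at -0.36 without the proliferating KD replicate 1. Cacnb1 changed by -0.53 (SE 0.06, adjusted p = 3.27e-05) and Cacng3 by -0.42 (SE 0.06, adjusted p = 0.000452), and in these 4 genes the groups did not overlap.

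Scn2a in KD cells was called lower in 11 of 14 probe sets, where 2.32% of all probe sets were. Its changes ran from -0.33 to -0.72 with a median of -0.57, and in all 14 the groups were apart, as in 21.4% of all probe sets. Its probe set with the highest level read 10.61, 10.51 and 10.58 in proliferating KD cells and 9.86, 9.87 and 9.87 after RA. Kcnn2, with -0.37, stayed just inside the limit, Cacna1b was at -0.19 and Cacna1g at -0.13. Kcnh7, which RA raised in control cells, changed by 0.038 in KD cells (95% confidence interval -0.10 to 0.18). All KD arrays of Kcnh7 lay under the dim level, and whether a response of this gene is visible there was not tested. Scn1a had a change of 0.31 in KD cells (SE 0.09, adjusted p = 0.0223), inside the limit. Other uncalled changes were 0.33 for Kcnk5, an acid-sensitive leak channel, 0.24 and 0.17 for the probe sets of Scn9a, 0.20 for the calcium channel beta subunit Cacnb2 and 0.18 for a probe set of the TARP gene Cacng2. By adjusted p alone 33 channel probe sets passed, 7 higher and 26 lower, against 21.1% of all probe sets.

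**Figure D4:**
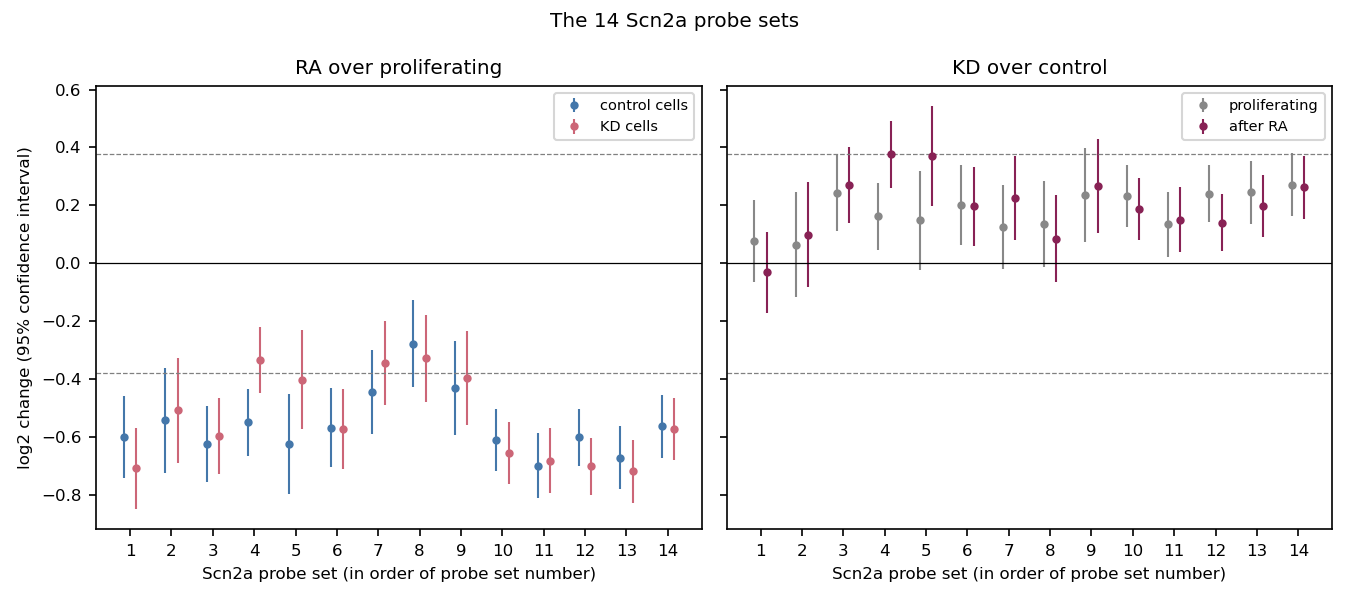
Log2 change (y axis) with its 95% confidence interval for each of the 14 Scn2a probe sets (x axis), for RA over proliferating cells on the left and KD over control cells on the right, with the 1.3-fold limits dashed. With RA the points lie between -0.28 and -0.72 in both kinds of cell, and with the knockdown between -0.031 and 0.38.

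The change of Scn2a with the knockdown ran from 0.064 to 0.27 in proliferating cells, with a median of 0.18 and 7 of 14 probe sets past the adjusted p alone, and from -0.031 to 0.38 after RA, with a median of 0.20 and 10 past it. None of the 14 was called in either state, but after RA 2 of them lay just under the 1.3-fold limit, at 0.377 and 0.371 against 0.379. Of 23 alternative settings that kept this limit, the former was called higher in 6 (up to 0.394) and the latter in 5 (up to 0.468), among them arrays centred, quantile normalisation repeated and array weights in both.

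Whether the RA response differed between KD and control cells was tested as the interaction, the RA change in KD cells less the RA change in control cells. By limma, 0 channel genes were called, where 0.145% of all genes were called higher and 0.286% lower, and 18 of the 142 probe sets had an unadjusted p under 0.05, against 14.9% of all probe sets. The smallest adjusted p was 0.0521, for Kcnh7, with a log2 difference of -0.44 (95% confidence interval -0.64 to -0.25). Its KD arrays lay under the dim level in both states, and whether a response to RA is visible there was not tested. Under 9 of 23 alternative settings Kcnh7 was called, with adjusted p from 0.0195 to 0.134 over all of them. The other differences furthest from 0 were -0.37 for Kcna4 (adjusted p = 0.185), 0.36 for Kcnn3 (adjusted p = 0.105), -0.32 for Kcnt2, 0.32 for Cacna1h, -0.31 for Cacnb4, 0.31 for Kcnj1, 0.31 for Kcnc1, 0.31 for Scn1a and 0.30 for Scn3a (adjusted p = 0.0773). A difference in the RA response is thus not shown for any of them, nor is its absence. Kcnt2, Cacnb4 and Kcnj1 had means under the dim level in every group. The KD and RA comparisons share groups, so that their values for a gene are not independent.

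**Figure D5:**
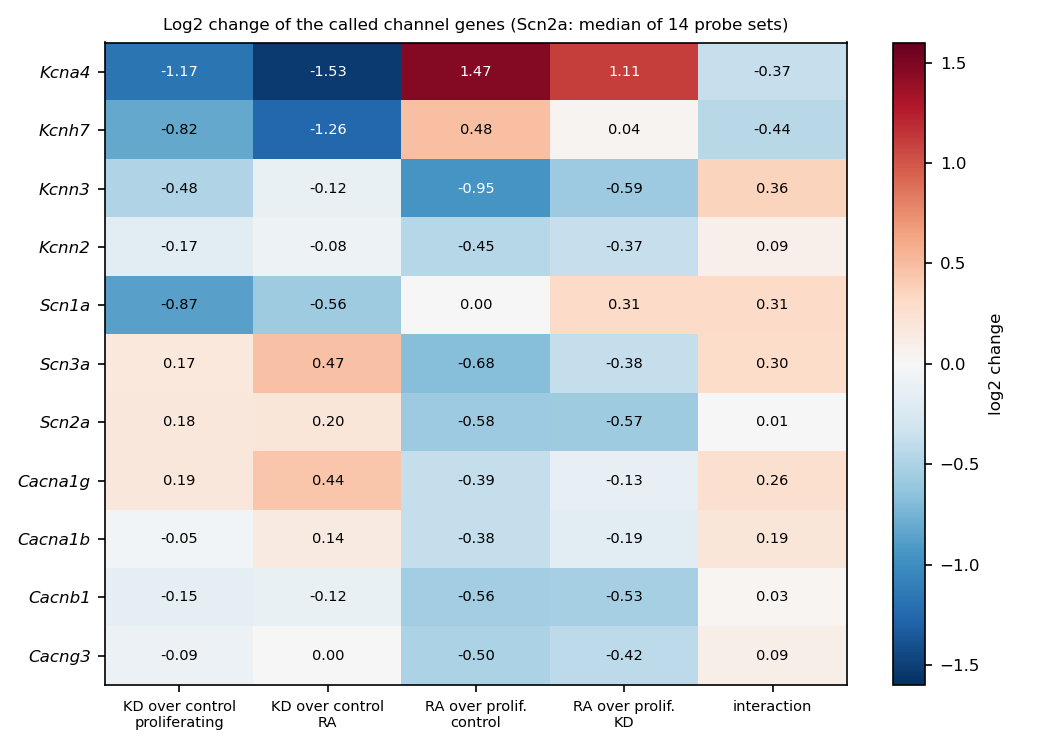
Log2 change of 11 called channel genes (rows) in the 5 comparisons (columns), with the value in each cell and colour from blue (lower) to red (higher); Scn2a is the median of its 14 probe sets and the uncertain Kcnma1 is left out. Kcna4 was lower with the knockdown and higher with RA, whereas Scn3a and Cacna1g had values above 0 with the knockdown and below 0 with RA.

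Read by class, the calls were few and mostly of pore-forming members, and Cacnb1 and Cacng3 were the only others. None of the 15 inward rectifiers, 14 tandem-pore channels, 16 auxiliary potassium channel subunits, 10 Kv modifiers, 3 sodium channel beta subunits or 4 alpha2delta genes was called in any of the 5 comparisons. With 10.5% of all genes called in at least 1, counts of 0 in classes this small say little about a class. Of the 25 pore-forming Kv genes only Kcna4 and Kcnh7 were, and of the 8 calcium- and sodium-activated genes Kcnn2, Kcnn3 and the uncertain Kcnma1. The median over the genes of a class lay between -0.15 (Cav beta, 3 genes) and 0.053 (Nav alpha) in proliferating KD cells, where the median over all probe sets was -0.011. With RA in control cells the class medians over genes lay between -0.072 and 0.093, so that the lower values of Nav alpha over probe sets, with a median of -0.55, came from the 14 probe sets of Scn2a.

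Several of the called genes are neighbours. In RefSeq's order of protein-coding genes on chromosome 2, Kcnh7 is followed after 4 other genes by Scn3a, Scn2a lies next to Scn3a, and after 3 more come Scn1a, Scn9a and Scn7a side by side. Kcna4 lies on the same chromosome, 461 genes after Scn7a. These neighbours did not all move in the same direction with the knockdown. In proliferating KD cells Kcnh7 and Scn1a fell, while the changes of Scn3a, Scn2a (median) and Scn9a were 0.17, 0.18 and 0.10 or 0.032. The adjacent Scn3a and Scn2a (median) had changes of the same sign in both KD and both RA comparisons, and were called lower with RA in both kinds of cell. Whether probes of these related sodium channels also bind each other's transcripts was not tested.

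Other genes of excitability, a list of pumps, exchangers, intracellular calcium channels, HCN channels and channel partners, had 42 of 48 members measured. None was called in proliferating KD cells or with RA in KD cells. After RA, Ryr2, an intracellular calcium release channel, fell with the knockdown by 0.62 on the log2 scale, and its RA response differed between KD and control cells by -0.46 (adjusted p = 0.0175). With RA in control cells the plasma membrane calcium pump Atp2b3 had a called change of -0.38. The list's medians lay between -0.047 and 0.039, and the largest uncalled change in proliferating KD cells was -0.30 for Hcn4, a pacemaker channel.

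The identity of the cells was read from marker lists. Of 14 measured neuroblast and sympathoadrenal markers 12 were above the dim level, where 66% of all probe sets with 1 symbol were. A count above this level alone does not show a cell type. In proliferating KD cells Hand2, Isl1, Th and Dbh of this list were called higher, and after RA Dbh was higher (0.41) but Phox2a lower (-0.42) in KD than in control cells. Inside the 1.3-fold limit in proliferating KD cells, Gata2 (-0.21), Uchl1 (-0.19) and Elavl4 (-0.17) were lower by adjusted p alone, and Tubb3 (0.24) higher. The median change of the list in these cells was 0.015. With RA Gata2, Th and Dbh were called lower in both kinds of cell. The summed log2 level of the 14 was 129 to 130 in proliferating control, 131 to 132 in proliferating KD, 128 in control and 127 to 128 in KD cells after RA. Of glia markers 5 of 8 were above the dim level and 0 were called by limma in any comparison. Of fibroblast markers 6 of 10 were above it, and Pdgfrb was called lower with the knockdown in both states. By limma, Pdgfrb was also called higher in the interaction (0.45, adjusted p = 0.0285). Of immune and endothelial markers 3 of 9 were above it, and Pecam1 was called lower with RA in both kinds of cell. The part of these shifts in the channel results was not tested.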

How the data were processed

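The authors deposited a log2 value for each probe set and array. Per the study's methods, RMA was applied to the scanner files: background correction, then quantile normalisation, then a summary for each gene. No version of RMA or of limma is stated. Since this sets all arrays to 1 scale (array medians 7.146 to 7.209), shifts in the RNA content of a cell are not visible. Scan batches were not stated either, and with 3 arrays a group precision is limited by their number.

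The platform annotation gave a single symbol to 21789 of 35556 probe sets, several to 1621 and none here to 12146. Of the probe sets with several symbols 3 named a channel gene and were left out. Means of the 4 groups were fitted over 21789 probe sets and 12 arrays with limma 3.58.1 (lmFit and eBayes) in R 4.3.3. No replicate block was used, and p-values were adjusted over all of them by the Benjamini-Hochberg method. The two-sided tests compared KD with control in each state, RA with proliferating in control and in KD cells, and the difference between these RA responses (interaction). The study's filter on variable genes was an alternative, as were other normalisations, variance priors, sets of probe sets and fits without each array. The fit was tested on simulated data. Whether replicate numbers pair the arrays is not settled (closing section).

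Named genes were those called, those among the 8 largest changes each way (probe sets of Scn2a counted) in each KD and RA comparison and the 4 largest each way for the interaction, and the 2 highest of each class; others were named after their values were seen. The members and lists were chosen with earlier results of these data known. Promoter sequences, gene names and gene order are RefSeq's for GRCm38.p6; proteins were not used here. The array annotation's build is not given, so coordinates belong to RefSeq alone.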

Additional observations from a re-analysis of the deposited data

How the results depend on the processing

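Of 49 called changes of a probe set, 42 stayed called under every alternative. Beside 3 changes of 2 Scn2a probe sets, 4 lost the call: Cacna1g with RA in control cells (-0.35 without control RA replicate 3), Cacna1b there (-0.36 without the same array, -0.37 without proliferating control replicate 1 and -0.38 with arrays centred), Scn3a with RA in KD cells (-0.33 without KD RA replicate 2, -0.36 without proliferating KD replicate 1 or with arrays centred, -0.35 with quantile normalisation repeated) and Kcnma1 with RA in control cells when its probe sets were averaged (0.29). Values reversed for uncalled changes only: Scn1a with RA in control cells ran from -0.077 (without control RA replicate 2) to 0.12 (without replicate 3), and was below 0 without replicate 1 too; Kcnh7 with RA in KD cells ran from -0.010 (without KD RA replicate 3) to 0.087. Calls were gained by Kcnk1 and Kcnk3 with the knockdown in proliferating cells (-0.39 without proliferating control replicate 1 and 3, respectively) and by Kcnn2 with RA in KD cells (-0.42 without KD RA replicate 2, -0.38 without proliferating KD replicate 3). Scn2a was called higher with the knockdown after RA in 2 probe sets with arrays centred (0.393 and 0.386), quantile normalisation repeated (0.394 and 0.382), array weights (0.392 and 0.394) and without KD RA replicate 3 (0.379 and 0.379), and in 1 of them without control RA replicate 1 (0.468), control RA replicate 3 (0.384) or KD RA replicate 1 (0.394). The cause of these was not tested.

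The interaction gave 1 called gene and probe set, Kcnh7 (lower), in place of 0 with the more variable 50% of the probe sets, 1 probe set per gene, arrays centred, quantile normalisation repeated, array weights, a trended robust prior, the replicate block or without control RA replicate 1, and 1 gene with the mean of a gene's probe sets; it was called in 9 of 23 settings, with adjusted p from 0.0195 to 0.134. With 1 probe set per gene, RA called 11 probe sets in control and 7 in KD cells. Without probe sets under the median level, the knockdown called 1 in proliferating cells and 2 after RA, since Kcna4, Kcnh7 and Scn1a were then not tested. Without the fold limit the knockdown called 23 probe sets of 17 genes in proliferating cells and 32 of 23 genes after RA, and RA 20 genes in control cells and 33 probe sets of 19 genes in KD cells. The class median of calcium- and sodium-activated channels was 0.024 for the interaction with quantile normalisation repeated, and ran from -0.077 to 0.014 with RA in KD cells without 1 array. With the 99th percentile as the dim level, 48 probe sets were above it. Leaving out 1 array at a time gave 4 to 5 called probe sets and genes with the knockdown in proliferating cells, 5 to 7 probe sets and 5 to 6 genes after RA, 21 to 23 and 9 to 11 with RA in control cells, 16 to 18 and 6 to 8 with RA in KD cells, and 0 to 1 for the interaction.

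Same-numbered arrays deviated together at correlations from -0.0689 to 0.199, over 0.1 in 4 of 12 pairs. In 7 of the 12 the correlation was highest with the array of the same number, so that pairing by number is not settled. With the replicate block the interaction count was 1 and no other count changed. Signals near or under the dim level limit Kcna4, Kcnh7 and Scn1a in KD cells, and Kcna4 in proliferating control cells too (6.61, 6.51 and 6.58).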
